A study of Mus musculus with 8 samples.

Results

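The liver does not make steroid hormones from cholesterol as the adrenal gland and gonads do, but it carries many of the enzymes that act on them. The transcripts of 8 of these enzymes were followed across the livers of mice fed diets with different amounts of amino acids. They were chosen by name, with earlier results of these data known: Cyp17a1, Cyp7b1, Hsd3b2, Hsd3b3, Hsd3b5, Srd5a1, Hsd11b1 and Akr1c6. All 8 were among the 11784 genes for which values were deposited. RNA was sequenced from the livers of male C57BL/6J mice, 4 kept on the Control diet (TD.140711, about 22% of calories from amino acids) and 4 kept on the Low AA diet (TD.140712, about 7% of calories from amino acids, with more carbohydrate in their place). Both groups were switched from chow at 9 weeks of age and were killed about 4 months later, after an overnight fast of about 16 hours, so every value is from a fasted liver. Mice were group housed and which of them shared a cage is not given in the sources used here, so that p-values treat the 4 mice of a diet as independent. Mice are named by their codes, which start with F on the Control diet and with H on the Low AA diet.

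Steroid hormones are interconverted by oxidation and reduction at a few positions of the steroid ring, and most of these steps need NADPH or NADP as a partner. In liver they serve to regenerate active glucocorticoid, to inactivate androgens, progestins and glucocorticoids before they are conjugated and excreted, and to pass oxysterols towards bile acids. Several liver steroid enzymes of the mouse, Hsd3b5 and Cyp7b1 among them, are known to be expressed more in males than in females, under the control of the pattern of growth hormone secretion.

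Values are read counts that, as inferred from their gaps and doublings, had been scaled and rounded, and are called scaled read counts. They summed to between 27876664 and 30799385 per mouse, and every gene listed had at least 28 in 3 or more mice. Differences are given as log2 fold changes of the scaled read count + 1, Low AA minus Control, with the limma standard error (SE) and 95% interval, and a gene is called when its p, adjusted by the Benjamini-Hochberg method over all 11784 genes, is under 0.05. All 5 hepatocyte markers examined were listed and together summed to at least 1935386 in each mouse. Of 8 markers of steroid-making adrenal or gonad tissue, 6 were not listed, Cyp11a1, Cyp21a1 and Cyp11b1 among them, and the other two, Star and Fdx1, summed to between 767 and 974 in the Low AA mice and between 864 and 1085 in the Control mice. Control mouse F2212 stood apart in the pancreatic elastase Cela1, with 36587 against 130 to 288 in the other 7 mice. Cela1 was the only one of 6 pancreas markers listed. Since every gene listed had at least 28 in 3 or more mice, a transcript high in F2212 alone would not be listed. The absence of the other pancreas markers thus says nothing about F2212. In the same way, an adrenal or gonad marker present in fewer mice would not be listed. Without F2212, 77 of all genes were called in place of 47, and none of the 8 enzymes. Among the enzymes the log2 fold change of Akr1c6 went from -0.31 to -0.14 and that of Hsd3b5 from 0.01 to -0.18, and those of the other 6 moved by less than 1.5 times. In tissue RNA, a lower level cannot be told apart from fewer cells that express the gene.

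Of the 8 enzymes, 0 were called by limma, against 0.399% of all genes. At an unadjusted p under 0.05 there were 3 of 8, against 11.8% of all genes. Cyp17a1 and Hsd11b1 were the higher ones with Low AA, against 5.13% of all genes, and Srd5a1 the lower one, against 6.7%. In 1 of 8, Hsd11b1, the values of the 2 diets did not overlap, against 6.81% of all genes, or 3.26% with Low AA higher and 3.55% with it lower. The log2 fold change was above 0 in 3 enzymes and below 0 in 5, against 50.5% and 49.5% of all genes, with a median of -0.32, where the median of all genes was 0.0023. Since the enzymes were chosen with earlier results of these data known, these counts beside all genes are a description only. By none of the other settings tried was an enzyme called, except that Cyp17a1 was called when Control mouse F2110 was left out.

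**Figure D1:**
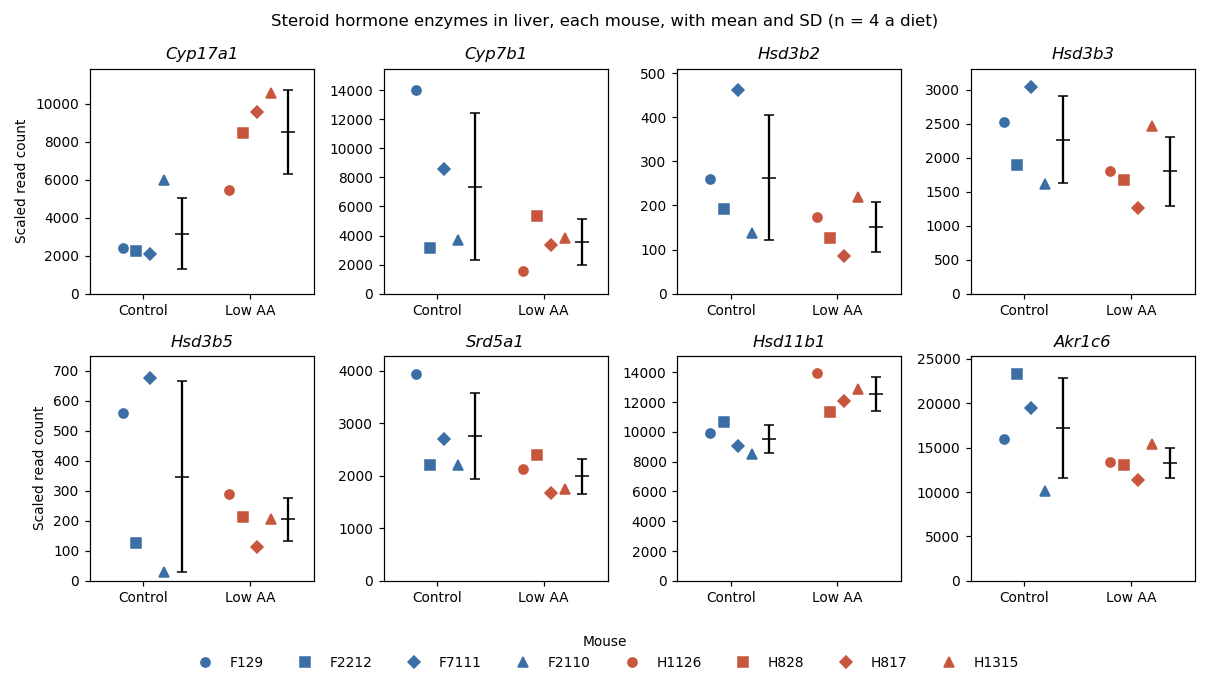
Scaled read counts of the 8 enzymes in each of the 4 Control and 4 Low AA mice, with the mean and SD beside each group and every axis starting at 0. For Hsd11b1 all 4 Low AA mice lie above all 4 Control mice, and for Cyp17a1 Control mouse F2110 (5990) lies above Low AA mouse H1126 (5468).

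Cyp17a1 encodes the cytochrome P450 that hydroxylates pregnenolone and progesterone and then cleaves their side chain, the step that leads to androgens. Its scaled read counts were 5468, 8446, 9564 and 10565 in Low AA mice H1126, H828, H817 and H1315. In Control mice F129, F2212, F7111 and F2110 they were 2389, 2220, 2061 and 5990. Thus 3 Control mice lay close together and below every Low AA mouse, and the fourth, F2110, lay above 1 Low AA mouse. The means were 8511 ± 2205 in the Low AA mice and 3165 ± 1888 in the Control mice (n = 4, SD), with a log2 fold change of 1.54 (SE 0.33, 95% interval 0.81 to 2.27) that was not called by limma (adjusted p = 0.0847). On the linear scale this is 2.90-fold, with an interval from 1.76 to 4.81. Without F2110 the log2 fold change was 1.90 and the limma adjusted p was 0.00737, and over the 15 other settings tried the adjusted p ran from 0.00737 to 0.272. The same mouse had the lowest scaled read count of all 8 mice in Hsd3b5, Hsd11b1 and Akr1c6. Cyp17a1 draws its electrons from P450 oxidoreductase, and its lyase step is aided by cytochrome b5. Their genes, Por and Cyb5, had log2 fold changes of 0.10 (SE 0.17, limma adjusted p = 0.874) and 0.03 (SE 0.14, limma adjusted p = 0.956).

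Few of the genes that make steroids from cholesterol were listed. Of 10 genes for the steps before and after Cyp17a1 in the adrenal gland and gonads, 3 were listed, 0 of them were called by limma, and 0 had an unadjusted p under 0.05. Star, which brings cholesterol into mitochondria, had scaled read counts of 55 to 80 in the Low AA mice and 50 to 97 in the Control mice. Stard3 and Tspo, also concerned with cholesterol movement, had log2 fold changes of -0.09 (SE 0.13, limma adjusted p = 0.864) and 0.06 (SE 0.14, limma adjusted p = 0.917).

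Hsd11b1 encodes the enzyme of the endoplasmic reticulum that turns inactive 11-dehydrocorticosterone back into corticosterone, the main glucocorticoid of the mouse. Its scaled read counts were 13990, 11341, 12064 and 12867 in Low AA mice H1126, H828, H817 and H1315. They were 9915, 10644, 9068 and 8508 in Control mice F129, F2212, F7111 and F2110. The diets did not overlap, the highest Control mouse, F2212, lying below the lowest Low AA mouse, H828. The means were 12566 ± 1136 and 9534 ± 939 (n = 4, SD), with a log2 fold change of 0.40 (SE 0.11, 95% interval 0.16 to 0.64), or 1.32-fold with an interval from 1.12 to 1.56, which was not called by limma (adjusted p = 0.16). Over the 15 other settings, in which each mouse was left out in turn or another choice was changed, the log2 fold change ran from 0.35 to 0.45 and the limma adjusted p from 0.112 to 0.386.

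Of 12 other genes for glucocorticoid interconversion and for the supply of electrons or NADPH, 0 were called by limma, 2 had an unadjusted p under 0.05, and the median log2 fold change was -0.03. H6pd supplies NADPH to Hsd11b1 inside the endoplasmic reticulum, and its log2 fold change was -0.04 (limma adjusted p = 0.937). G6pdx, the glucose-6-phosphate dehydrogenase of the cytosol, had 163 ± 21.8 in the Low AA mice and 125 ± 6.68 in the Control mice (n = 4, SD), with a log2 fold change of 0.38 (SE 0.13, limma adjusted p = 0.284). Pgd, the next NADPH-making enzyme of that pathway, had a log2 fold change of 0.18 (SE 0.10, limma adjusted p = 0.524). Fdxr, the ferredoxin reductase that feeds mitochondrial P450 enzymes, had 366 ± 55.9 and 543 ± 58.0 (n = 4, SD), with a log2 fold change of -0.57 (SE 0.13, limma adjusted p = 0.113). The diets did not overlap in G6pdx, where the Low AA mice were higher, nor in Fdxr, where they were lower.

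Among steroid carriers and receptors, 10 of 13 genes were listed, 0 were called by limma and 1 had an unadjusted p under 0.05, with a median log2 fold change of 0.05. The glucocorticoid receptor gene Nr3c1 had 1736 ± 176 in the Low AA mice and 1628 ± 224 in the Control mice (n = 4, SD), with a log2 fold change of 0.10 (SE 0.12, limma adjusted p = 0.824). The mineralocorticoid receptor gene Nr3c2 had a log2 fold change of -0.27 (SE 0.28, limma adjusted p = 0.776), and Hsp90ab1, a chaperone of these receptors, one of -0.08 (SE 0.16, limma adjusted p = 0.905). Pgrmc1, a haem-binding partner of P450 enzymes, had a log2 fold change of -0.32 (SE 0.10, limma adjusted p = 0.257) with no overlap between diets.

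Hsd3b2, Hsd3b3 and Hsd3b5 belong to a family of neighbouring genes on chromosome 3 whose usual reaction oxidises the 3-beta-hydroxyl group of steroids. Hsd3b5 is known to work in the other direction, as a 3-ketosteroid reductase that uses NADPH, and is typical of male mouse liver. In the GRCm38.p6 build Hsd3b5 lies at chr3:98618636-98645534, Hsd3b2 at chr3:98711107-98724543 and Hsd3b3 at chr3:98741476-98764540, all on the minus strand. The first 90 bases of their open reading frames, read from GENCODE M21 transcripts, are shown to let the likeness of the 3 genes be seen, with capitals at the bases where Hsd3b3 or Hsd3b5 differs from Hsd3b2.
Hsd3b2: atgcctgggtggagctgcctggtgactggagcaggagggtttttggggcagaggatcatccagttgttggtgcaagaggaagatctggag
Hsd3b3: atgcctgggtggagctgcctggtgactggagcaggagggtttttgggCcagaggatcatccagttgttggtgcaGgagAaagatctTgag
Hsd3b5: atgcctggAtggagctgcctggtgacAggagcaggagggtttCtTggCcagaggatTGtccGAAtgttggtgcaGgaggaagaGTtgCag
Over these bases Hsd3b3 differs from Hsd3b2 at 4 and Hsd3b5 at 14. Over the whole frames of 1122 bases, Hsd3b2 and Hsd3b3 are identical at 95.1% of aligned bases, while Hsd3b5 is identical to each of them at 80.5%.

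Reads from such genes can be hard to assign. Of all 100-base windows of the longest coding transcript, 14.9% in Hsd3b3 are found unchanged in transcripts of other genes, with 14.3% found in Hsd3b2, and in Hsd3b2 the share is 7.09%. In Hsd3b5 it is 7.79%, all of these windows being found in the gene model Gm10681. The reads were 100 bases long, so the values of Hsd3b2 and Hsd3b3 depend in part on how shared reads were divided, and are uncertain to that extent.

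Hsd3b3 was the most abundant of the 3 in every mouse. Its scaled read counts were 1796, 1675, 1251 and 2469 in Low AA mice H1126, H828, H817 and H1315, and 2523, 1890, 3032 and 1607 in Control mice F129, F2212, F7111 and F2110. The diets overlapped, with means of 1798 ± 505 and 2263 ± 640 (n = 4, SD) and a log2 fold change of -0.33 (SE 0.23, 95% interval -0.85 to 0.19, limma adjusted p = 0.652).

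Hsd3b2 had 173, 126, 86 and 219 in the same 4 Low AA mice, and 259, 193, 463 and 137 in the 4 Control mice. The diets overlapped here too, with means of 151 ± 57.6 and 263 ± 142 (n = 4, SD) and a log2 fold change of -0.73 (SE 0.37, 95% interval -1.56 to 0.10, limma adjusted p = 0.495). Without Control mouse F7111, in which both genes were highest, the log2 fold changes of Hsd3b2 and Hsd3b3 were -0.41 and -0.18 (limma adjusted p = 0.593 and 0.758). Over all other settings the adjusted p ran from 0.339 to 0.869 for Hsd3b2 and from 0.412 to 0.944 for Hsd3b3. The order of the 8 mice was nearly the same in both genes, with a Pearson r of 0.97 on the log2 scale over the 8 mice, which share libraries and, in part, reads.

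Hsd3b5 had 289, 211, 113 and 207 in Low AA mice H1126, H828, H817 and H1315, and 558, 127, 675 and 28 in Control mice F129, F2212, F7111 and F2110. The 2 highest values and the lowest were all in Control mice, so the Low AA mice lay inside the Control range. The highest Control mouse was 24.1 times the lowest, where the highest Low AA mouse was 2.56 times the lowest. The SD on the log2 scale was 2.12 on the Control diet, where the median gene had 0.23, and 0.56 on the Low AA diet, where the median gene had 0.17. The means were 205 ± 72.0 in the Low AA mice and 347 ± 317 in the Control mice (n = 4, SD), but the log2 fold change was 0.01 (SE 0.84, 95% interval -1.86 to 1.88, limma adjusted p = 0.996), since the log scale gives weight to the low value of F2110. Without F2110 it was -0.90 (limma adjusted p = 0.59, and 0.59 to 0.997 over the other settings). No direction can be given for Hsd3b5.

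The share of each gene in the summed scaled read counts of the 3 was also followed. Hsd3b3 held 83.6 ± 2.98% with Low AA and 81.1 ± 8.42% with Control, and Hsd3b2 held 6.85 ± 0.887% and 8.83 ± 1.59% (n = 4, SD). The share of Hsd3b5 was 9.56 ± 2.60% and 10.1 ± 7.58%, and in the Control mice it ran from 1.58% in F2110 to 16.7% in F129. Of the 10 genes of the family, 5 were listed, and neither of the other two was called by limma. Hsd3b7, which acts on bile acid precursors, had a log2 fold change of -0.23 (SE 0.13, limma adjusted p = 0.526), and Nsdhl, of cholesterol synthesis, one of -0.31 (SE 0.14, limma adjusted p = 0.412). Of the 100-base windows of Hsd3b7, 93.7% are shared with the gene model Gm49388, so its reads may have been divided and its value is uncertain.

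The 250 bases before the start of these 3 genes were compared because the order of the 8 mice was alike in these neighbouring genes, most of all in Hsd3b2 and Hsd3b3. They are given from RefSeq on GRCm38.p6, on the minus strand: Hsd3b2 at chr3:98724544-98724793, Hsd3b3 at chr3:98763129-98763378, which is 1 of its 2 start sites in RefSeq, and Hsd3b5 at chr3:98645535-98645784. Within these windows, capitals mark the longest run of 24 bases that Hsd3b3 and Hsd3b5 have in common. They also mark the longest run, of 8 bases, that Hsd3b2 and Hsd3b3 have in common there.
Hsd3b2: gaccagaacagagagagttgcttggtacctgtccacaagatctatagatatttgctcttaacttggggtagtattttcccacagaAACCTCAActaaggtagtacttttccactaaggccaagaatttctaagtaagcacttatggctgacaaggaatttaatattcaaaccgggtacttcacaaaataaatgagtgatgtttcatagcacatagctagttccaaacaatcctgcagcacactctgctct
Hsd3b3: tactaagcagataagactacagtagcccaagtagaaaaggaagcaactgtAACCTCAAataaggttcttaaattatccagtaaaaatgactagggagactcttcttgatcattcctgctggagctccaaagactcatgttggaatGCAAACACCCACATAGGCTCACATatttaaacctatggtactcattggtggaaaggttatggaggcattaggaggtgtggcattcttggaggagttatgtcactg
Hsd3b5: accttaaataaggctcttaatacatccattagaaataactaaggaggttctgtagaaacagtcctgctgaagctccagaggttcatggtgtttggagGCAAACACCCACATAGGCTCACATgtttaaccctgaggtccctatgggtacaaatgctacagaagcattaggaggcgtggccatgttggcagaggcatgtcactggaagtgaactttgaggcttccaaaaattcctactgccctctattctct
In a global alignment Hsd3b3 and Hsd3b5 were identical at 75.9% of aligned bases, Hsd3b2 and Hsd3b3 at 50.6%, and Hsd3b2 and Hsd3b5 at 48.1%. These shares leave out gaps, which were unequal. Hsd3b3 and Hsd3b5 had 151 identical of 199 aligned bases and 102 gap bases. Hsd3b2 and Hsd3b3 had 119 of 235 and 30, and Hsd3b2 and Hsd3b5 had 116 of 241 and 18. Part of the contrast thus comes from the gaps. By identity over aligned bases, the pair nearest in coding sequence was not the pair nearest in these windows. The windows were cut at annotated starts, which are not at matching bases. The letters gcacactctgctctct span the start of Hsd3b2 but lie after that of Hsd3b3, outside its window. They are a longer run than the 8 bases marked. In 300-base windows that run past the start, identity was 57.2% for Hsd3b2 and Hsd3b3, with 100 gap bases. It was 76.3% for Hsd3b3 and Hsd3b5, with 102, and 54.3% for Hsd3b2 and Hsd3b5, with 36. Which pair is nearest with the starts matched was not tested. Over the 8 mice, the Pearson r of Hsd3b5 was 0.70 with Hsd3b3 and 0.68 with Hsd3b2 on the log2 scale. Akr1c6, which lies on chromosome 13, had an r of 0.64 with Hsd3b3 and 0.69 with Hsd3b2. After the diet means were subtracted, r with Hsd3b3 was 0.78 for Hsd3b5 and 0.56 for Akr1c6. With Hsd3b2 it was 0.81 for Hsd3b5 and 0.61 for Akr1c6. Whether neighbouring genes are more alike than others was not tested.

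Cyp7b1 hydroxylates oxysterols and also dehydroepiandrosterone, and lies on the alternative route to bile acids. Its scaled read counts were 1588, 5377, 3357 and 3862 in Low AA mice H1126, H828, H817 and H1315, and 14003, 3127, 8580 and 3721 in Control mice F129, F2212, F7111 and F2110. Control mice F129 and F7111 lay above all the others, and the remaining Control mice lay among the Low AA mice. The means were 3546 ± 1562 and 7358 ± 5059 (n = 4, SD), with a log2 fold change of -0.91 (SE 0.49, 95% interval -2.00 to 0.17, limma adjusted p = 0.52). Without F129 the log2 fold change was -0.52 (limma adjusted p = 0.77, and 0.319 to 0.818 over the other settings).

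Of 12 genes of oxysterol and bile acid steps near Cyp7b1, 0 were called by limma, 2 had an unadjusted p under 0.05, and the median log2 fold change was -0.16. Cyp27a1, the mitochondrial sterol 27-hydroxylase that makes substrate for Cyp7b1, had 6690 ± 736 in the Low AA mice and 9703 ± 999 in the Control mice (n = 4, SD), with a log2 fold change of -0.54 (SE 0.11, limma adjusted p = 0.0847). Cyp39a1, the oxysterol 7-alpha-hydroxylase that prefers 24-hydroxycholesterol, had 2354 ± 512 and 1130 ± 320 (n = 4, SD), with a log2 fold change of 1.09 (SE 0.24, limma adjusted p = 0.0897). The diets did not overlap in either gene, with opposite signs, and neither passed the threshold. Cyp8b1 and Slc27a5, the most abundant genes of the list, which act late in bile acid synthesis and in conjugation, had log2 fold changes of -0.32 (SE 0.20, limma adjusted p = 0.603) and -0.16 (SE 0.13, limma adjusted p = 0.723). Cyp7a1, which starts the main route to bile acids, had one of -0.39 (limma adjusted p = 0.873).

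Srd5a1 encodes the liver's main steroid 5-alpha-reductase, which acts on testosterone, progesterone and corticosterone. Its scaled read counts were 2130, 2394, 1676 and 1746 in Low AA mice H1126, H828, H817 and H1315, and 3926, 2196, 2702 and 2199 in Control mice F129, F2212, F7111 and F2110. H828 lay above 2 Control mice, so the diets overlapped, and F129 was the highest of all. The means were 1987 ± 337 and 2756 ± 816 (n = 4, SD), with a log2 fold change of -0.44 (SE 0.19, 95% interval -0.87 to -0.02, limma adjusted p = 0.407). Without F129 it was -0.26 (limma adjusted p = 0.615, and 0.3 to 0.771 over the other settings). Of the windows of Srd5a1, 14.9% are shared with the transcript of another gene model, Gm17108, so part of its reads may have been divided.

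Akr1c6 encodes the aldo-keto reductase known as the type 5 17-beta-hydroxysteroid dehydrogenase, which reduces androstenedione to testosterone. Its scaled read counts were 13409, 13057, 11315 and 15438 in Low AA mice H1126, H828, H817 and H1315, and 15935, 23252, 19482 and 10071 in Control mice F129, F2212, F7111 and F2110. Control mice F129, F2212 and F7111 lay above every Low AA mouse, and F2110 lay below every one. The means were 13305 ± 1691 and 17185 ± 5605 (n = 4, SD), with a log2 fold change of -0.31 (SE 0.23, 95% interval -0.81 to 0.19, limma adjusted p = 0.661). It was -0.55 without F2110 and -0.14 without F2212, the mouse with the high Cela1, and not called by limma in either case (adjusted p = 0.229 and 0.844, and 0.229 to 0.923 over all other settings).

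Of 7 other aldo-keto reductases and 5-alpha- or 5-beta-reductases, 1 was called. Akr1c19 is a reductase of the same gene cluster as Akr1c6, to which its open reading frame of 972 bases is 74.0% identical. It had 336, 499, 507 and 379 in Low AA mice H1126, H828, H817 and H1315, and 1027, 1502, 965 and 965 in Control mice F129, F2212, F7111 and F2110. Every Low AA mouse lay below every Control mouse, and Akr1c19 fell from 1115 ± 260 to 430 ± 85.9 (n = 4, SD), with a log2 fold change of -1.37 (SE 0.18, limma adjusted p = 0.0135). It was called under all 15 other settings, with limma adjusted p from 0.00972 to 0.0429. Akr1c20, whose frame is 92.3% identical to that of Akr1c6, had a log2 fold change of 0.37, with a sign opposite to that of Akr1c6, and was not called by limma (adjusted p = 0.592).

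Akr1c14, the 3-alpha-hydroxysteroid dehydrogenase that follows the 5-alpha- and 5-beta-reductases, had 2589 ± 581 in the Low AA mice and 4274 ± 1199.7 in the Control mice (n = 4, SD), with a log2 fold change of -0.71 (SE 0.20, limma adjusted p = 0.178). Akr1c12 and Akr1c13, a near-identical pair of neighbours, had log2 fold changes of -0.22 and -0.31 (limma adjusted p = 0.49 and 0.321), and the diets did not overlap in Akr1c13. Akr1d1, the 5-beta-reductase, had a log2 fold change of 0.33 (SE 0.25, limma adjusted p = 0.682), and Srd5a3, whose main role is in dolichol synthesis, one of -0.03. Of 12 genes for 17-beta-hydroxysteroid dehydrogenases, 0 were called by limma, and 2 had an unadjusted p under 0.05, both higher on the Low AA diet. Hsd17b11, a lipid droplet protein, had the smallest p, its log2 fold change being 0.50 (SE 0.17, limma adjusted p = 0.258), while Rdh16 had 0.23, Hsd17b13 had 0.27 and Hsd17b4, which acts mainly in peroxisomal fatty acid oxidation, had 0.24 (limma adjusted p = 0.409, 0.426 and 0.484).

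**Figure D2:**
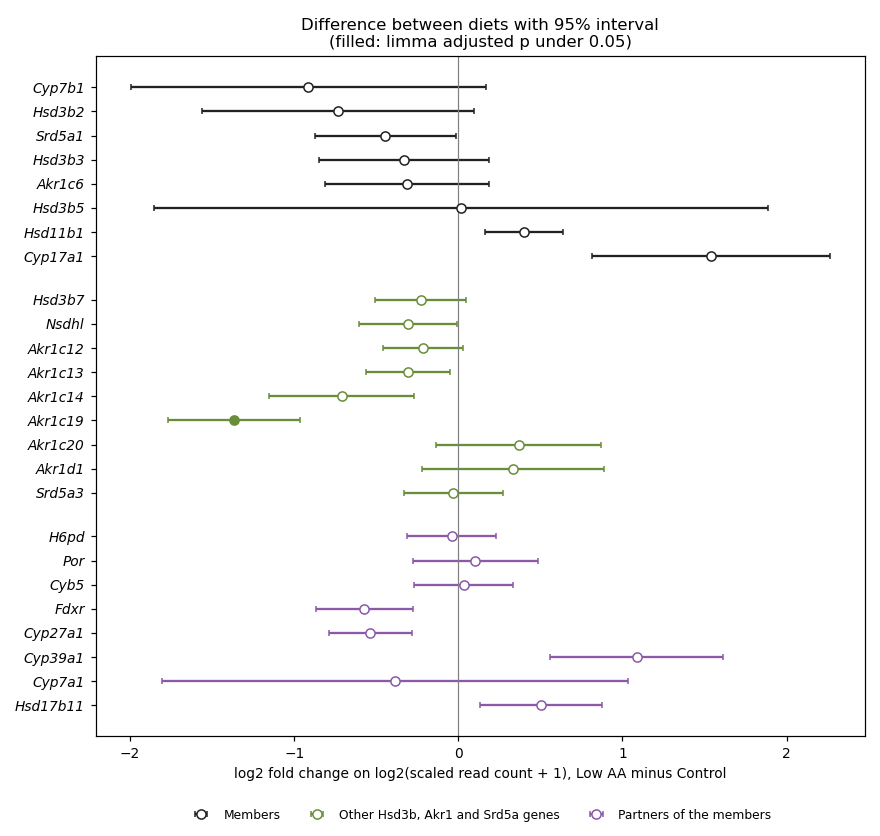
The log2 fold change of each gene (Low AA minus Control, on log2 of scaled read count + 1) with its 95% interval, for the 8 enzymes in black, other measured Hsd3b, Akr1 and Srd5a genes in green and genes of their partners in purple. Akr1c19, at -1.37, is the only filled point, and among the 8 enzymes the intervals of Cyp17a1, Hsd11b1 and Srd5a1 do not include 0.

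The values of single mice were also set side by side across the enzymes. Control mice F129 and F7111 were the 2 highest of the 8 mice in 5 of the 8 enzymes, Cyp7b1, Hsd3b2, Hsd3b3, Hsd3b5 and Srd5a1, against 3.2% of all genes. Both mice were among the 3 lowest in Cyp17a1. Among the other genes, these 2 mice were at the top in 10 of 19 male-biased genes, 5 of 15 conjugation genes, 2 of 13 steroid hydroxylases, 1 of 7 reductases and 1 of 9 female-biased genes, and in 0 genes of the other 7 lists, and Ugt2b1, Ugt2b38 and Cyp2d9 stand in 2 of these lists. This pattern was noticed in the values of the enzymes, of which Hsd3b2 and Hsd3b3 share reads, so its counts are a description. Of the 28 pairs of enzymes, Hsd3b2 and Hsd3b3 apart, those with the highest and the lowest Pearson r over the 8 mice are named. The Pearson r of Cyp7b1 with Srd5a1 was 0.77, and that of Cyp17a1 with Akr1c6 was -0.72. After the diet means were subtracted, r was 0.67 and -0.74 for these pairs, and -0.81 for Cyp17a1 with Hsd3b5. All these points share libraries. In Control mouse F2110, Cyp17a1 lay far above the other Control mice, while Hsd3b5 and Akr1c6 were the lowest of the 8 mice. How far the negative r values rest on this mouse was not tested.

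**Figure D3:**
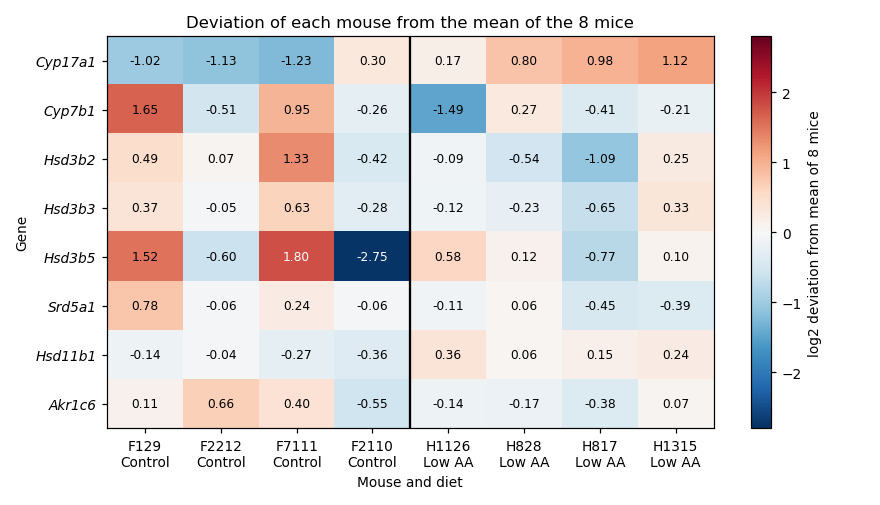
Deviation of each mouse from the mean of the 8 mice, on log2 of scaled read count + 1, for each enzyme (rows) and mouse (columns, Control left of the line and Low AA right), with red above and blue below the mean. The largest deviation is -2.75, for Hsd3b5 in Control mouse F2110, and F129 and F7111 are red in Cyp7b1, the 3 Hsd3b genes and Srd5a1 but blue in Cyp17a1.

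The liver carries the next steps of steroid inactivation as well. Over 12 lists of related genes, 131 genes other than the 8 were listed, and limma called 9 of them, of which 8 lay lower with Low AA and 1 higher, against 0.297% and 0.102% of all genes in those directions. The count was 5 without H1126, without H828, without F129 or without F7111, and 4 without H817. These lists too were chosen with earlier results of these data known, so their counts beside all genes are a description only. Of 13 cytochromes that hydroxylate steroids in liver, 1 was called. Cyp3a11, the main testosterone 6-beta-hydroxylase of mouse liver, rose from 34706 ± 9195 to 80752 ± 16337 (n = 4, SD), with a log2 fold change of 1.23 (SE 0.21, limma adjusted p = 0.0395), with 64543 to 94939 in the Low AA mice and 25318 to 45765 in the Control mice. Cyp2d9, the male-typical testosterone 16-alpha-hydroxylase, had 29909 ± 7596 and 56088 ± 8349 (n = 4, SD), with a log2 fold change of -0.93 (SE 0.19, limma adjusted p = 0.0793), without overlap. Cyp2b9, a female-typical P450, ranged from 23 to 2940 with Low AA, against 0 to 94 with Control (limma adjusted p = 0.161). Genes of the Cyp2d, Cyp3a and Cyp2b families have close copies, so reads may have been divided among them.

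Of 15 genes for sulfation, desulfation, glucuronidation and methylation of steroids, 0 were called by limma, and 11 had a log2 fold change below 0, with a median of -0.32. At an unadjusted p under 0.05 there were 6, all lower on the Low AA diet, against 6.7% of all genes. Ugt2b5 and Ugt2b1, which attach glucuronic acid to steroids, had log2 fold changes of -0.55 (SE 0.12, limma adjusted p = 0.0869) and -0.84 (SE 0.22, limma adjusted p = 0.146), without overlap between diets. Ugt2b38 had 18 to 42 with Low AA and 35 to 832 with Control (limma adjusted p = 0.185). Sequence shared among the Ugt2b genes was not examined, so their reads too may have been divided. The sulfotransferase listed as 2810007J24Rik, now Sult2a8, had a log2 fold change of -0.11 (SE 0.11, limma adjusted p = 0.78).

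Of 24 genes for nuclear receptors and growth hormone effectors, 0 were called by limma, and 4 had an unadjusted p under 0.05. Socs2, which growth hormone induces, had 557, 643, 832 and 234 in Low AA mice H1126, H828, H817 and H1315 and 417, 308, 178 and 114 in Control mice F129, F2212, F7111 and F2110, a log2 fold change of 1.18 (SE 0.45, limma adjusted p = 0.323). Stat5a, of the same pathway, had a log2 fold change of 0.52 (SE 0.18, limma adjusted p = 0.266). Other genes of this list went both ways. Stat5b and Igf1 had 0.24 and 0.20, and Ghr, Bcl6 and Cish had -0.28, -0.23 and -0.10 (limma adjusted p from 0.457 to 0.963). The abundant receptors Hnf4a and Ppara had 0.08 and 0.23 (limma adjusted p = 0.899 and 0.538).

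Since Hsd3b5 and Cyp7b1 are male-typical genes, lists of other sex-biased liver genes were set beside them. Of 19 male-biased genes outside the 8, 6 were called lower on the Low AA diet, against 0.297% of all genes, and 0 higher, against 0.102%. The median log2 fold change was -0.93, with 15 below 0 and 4 above, against 49.5% and 50.5% of all genes. The 6 called were Cyp4a12a (-2.02), Cyp4a12b (-1.80), Mup20 (-2.12), Serpina1e (-1.54), Gstp1 (-1.29) and C6 (-1.08), with limma adjusted p from 0.00198 to 0.0414. The diets overlapped in none of these 6. In 9 of the 19, these included, the Low AA mice lay lower without overlap, against 3.55% of all genes. Cyp4a12a, an arachidonic acid hydroxylase, fell from 12804.5 ± 2888 to 3149 ± 633, and Mup20, a major urinary protein, from 253032 ± 81168 to 57129.8 ± 13321 (n = 4, SD). Mup7, the most abundant of the list, was not called, with a log2 fold change of -0.47 (SE 0.41, limma adjusted p = 0.732). Mup and Cyp4a12 genes have near-identical copies, so their reads are uncertain.

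Of 20 female-biased genes, 9 were listed, where 19 of 22 male-biased ones were. Their median log2 fold change was 0.58, with 6 above 0 and 3 below. At an unadjusted p under 0.05, 5 of the 9 rose with Low AA, against 5.13% of all genes, and 1 fell, against 6.7%. By limma adjusted p, 0 of the 9 were called higher and 1 lower, against 0.102% and 0.297% of all genes. The one was Ntrk2, a neurotrophin receptor, with 6 to 11 in the Low AA mice and 20 to 61 in the Control mice and a log2 fold change of -2.11 (SE 0.36, limma adjusted p = 0.0414). Every gene listed had at least 28 in 3 or more mice, which Ntrk2 reached through the Control mice alone. Cyp2b9, among those that rose, reached it only with the Low AA mice. The other 11 genes were not listed, so these counts depend on which genes were listed and are a description only. Acot3, a peroxisomal acyl-CoA thioesterase, had a log2 fold change of 1.97 (SE 0.41, limma adjusted p = 0.0841), and Cyp4a14, the most abundant, one of 0.40 (SE 0.14, limma adjusted p = 0.279). All 3 blood markers listed had a negative log2 fold change, with sums of 7713 to 12216 in the Low AA mice and 6414 to 22257 in the Control mice, and so did all 4 bile duct markers, with 826 to 1316 and 1124 to 2265. All 5 macrophage markers had a positive one, with 4167 to 5736 and 3653 to 5730. None of these was called by limma, and their part in the results was not tested.

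Levels were compared between genes per kilobase of the longest annotated transcript. On the Control diet the order was Akr1c6 (12310 ± 4015 scaled read counts per kilobase), Hsd11b1 (4820 ± 475), Cyp7b1 (3397 ± 2336), Cyp17a1 (1317 ± 786), Srd5a1 (1042 ± 308), Hsd3b3 (475 ± 134), Hsd3b5 (224 ± 205) and Hsd3b2 (71.2 ± 38.5) (n = 4, SD). Neighbours in this order overlapped, except that all Control mice had more Akr1c6 than any had Hsd11b1, and more Srd5a1 than any had Hsd3b3. On the Low AA diet Cyp17a1, with 3542 ± 918 per kilobase, came in place 3, ahead of Cyp7b1 with 1637 ± 721 (n = 4, SD), and the rest of the order was the same. The place of Hsd3b3 depends on the transcript chosen. Its longest annotated transcript has 4766 bases and its longest coding one 1533, and with the latter it came in place 4 on the Control diet, with 1476 ± 417 per kilobase (SD, n = 4).

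**Figure D4:**
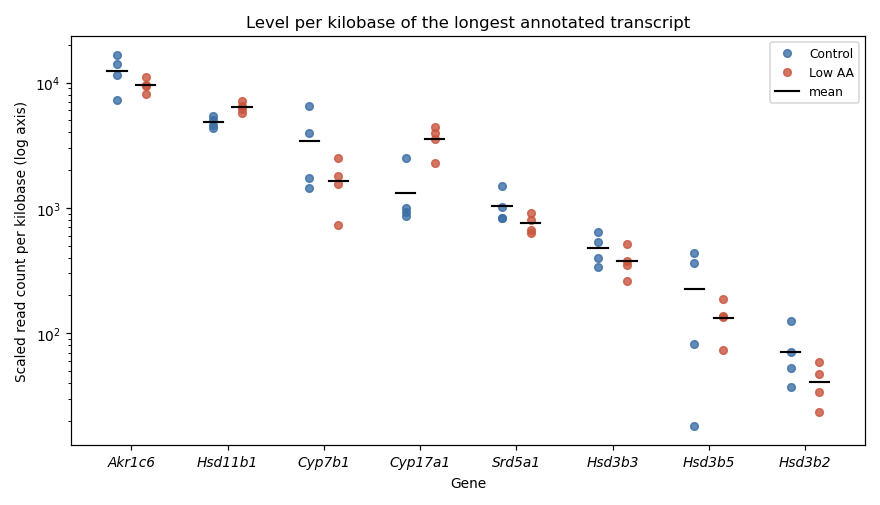
Scaled read count per kilobase of the longest annotated transcript (log axis) in each mouse, with Control in blue, Low AA in red and the group mean as a bar, for the 8 enzymes in order of the Control mean. Akr1c6 is highest and Hsd3b2 lowest on both diets, and Cyp17a1 and Cyp7b1 change places between the diets.

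The genes whose log2 values followed each enzyme most closely over the 8 mice were also listed, 3 for each. For Cyp17a1 they were Kynu, of tryptophan breakdown (Pearson r = 0.96), Pnpla2, the adipose triglyceride lipase (0.96), and 1700047I17Rik2 (0.95). For Cyp7b1 they were Dnajb9 (0.98), Syvn1 (0.95) and Dapk3 (0.95), and these 3 were also the nearest after the diet means were subtracted. Dnajb9 and Syvn1 act in protein quality control of the endoplasmic reticulum. For Hsd3b2 they were Ampd2, Hdac6 and Hsd3b3 (each 0.97), and for Hsd3b3 they were Hsd3b2 (0.97), Hdac6 (0.95) and Wdr6 (0.93). Hsd3b5 was most like Hao1, a peroxisomal glycolate oxidase (0.95), 4831440E17Rik (0.95) and Zfp385a (0.94). Srd5a1 was most like Phldb2 (0.95), Elmo1 and Ccpg1 (each 0.94). Hsd11b1 was most like Tmem26, B430306N03Rik (each 0.98) and Elmod3 (0.97). Akr1c6 was most like Aldh2, the mitochondrial aldehyde dehydrogenase, Dbr1 (each 0.97) and Gm3219 (0.95). Each r was picked as one of the highest over all genes, from 8 points that share libraries, and is a description only.

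Promoters of 300 bases, from 250 before to 50 after the start, were found in RefSeq for 6 of the 8 enzymes, 7 promoters in all, and Cyp17a1 and Cyp7b1 had no entry. They were searched on both strands for 6 motifs of factors that act on liver steroid genes. TATAAA, the letters of the TATA box, was found in Akr1c6, from -164 to -159 bases relative to the start, and in 13.6% of 32851 promoters. It is a match of letters only, and whether it works as a TATA box was not tested. The STAT5 palindrome TTCNNNGAA, in 8.3% of promoters, and the C/EBP letters TTNNGCAA, in 10.8%, were in none of the 7. Nor were TCAAGGTCA, bound by LRH-1 (0.423%), AGGTCA repeated after 1 base, a form bound by nuclear receptors (0.0396%), or AGAACA followed after 3 bases by TGTTCT, bound by glucocorticoid and androgen receptors (0.00913%). That the letters are missing from these windows says nothing about the factors.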

How the data were processed

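Liver poly(A) RNA from 8 mice was sequenced as stranded single-end libraries. The submitters' processing notes name bcl2fastq 1.8.2, STAR 2.5.0a, RSEM 1.2.6, edgeR 3.10.5, R 3.2.1 and the mm10 build. The table the authors deposited gives each gene's signal in every mouse, a read count after scaling and rounding, with a signed fold change (a score) and an FDR (a q-value) of their own comparison, neither of which was used. That the counts were scaled was inferred from evenly spaced gaps and doublings among low values, with factors fitted from 0.902 to 1.11. Totals after scaling were 27876664 to 30799385 per mouse, so raw depth is known only approximately.

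A count model needs raw counts, so log2(value + 1) was fitted with limma 3.58.1 in R 4.3.3 on all 11784 genes, 4 Low AA mice against 4 Control mice, letting the prior variance follow the mean, two-sided, with p-values adjusted by the Benjamini-Hochberg method (threshold 0.05). The scripts were tested on simulated data. No pairing was fitted.

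Named genes were the 8 enzymes, the measured Hsd3b, Akr1c and Srd5a genes, called genes of the other lists, up to 3 genes a list with the smallest p and the 2 most abundant, the 3 genes most like each enzyme and tissue markers. H6pd, Cyp7a1, Stat5b, Igf1, Ghr, Bcl6 and Cish were named for their role, after their values were seen. One gene that the rule would name is not reported here. The enzymes and lists were chosen with earlier results of these data known. Genes were matched by symbol, with 5 through older symbols in an NCBI gene table. Alternatives were pseudocounts of 0.1 and 5, the 8000 most abundant genes, equal column totals, no trend, robust moderation, vooma weights and each mouse left out. Transcripts were from GENCODE M21 and promoters from RefSeq GRCm38.p6, the assembly of mm10. Figures were drawn with matplotlib 3.10.9.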

Additional observations from a re-analysis of the deposited data

Results flagged for a closer look

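In groups of 4 mice, the mouse farthest from the others was compared with them by the gap to its nearest neighbour, as a share of the group's whole range, against Dixon's 95% critical value for 4 samples. Of 158 groups examined over 79 genes, 7 passed, and chance passes about 1 in 20. Of the 16 groups of the 8 enzymes, 1 passed.

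The one was Cyp17a1 in Control mouse F2110, with a gap of 0.862 of the range and a scaled read count of 5990, where the other Control mice had 2061 to 2389. In the aldo-keto reductase genes, Control mouse F2212 stood above the rest for Akr1c19 (0.859, with 1502 against 965 to 1027), and Control mouse F2110 stood below them for Akr1c20 (0.844, with 279 against 540 to 610). Control mouse F2212 was also below the rest for Cyp39a1 (0.838, with 660 against 1194 to 1339) and far above them for the pancreatic gene Cela1 (0.945, with 36587 against 130 to 178). On the Low AA diet, mouse H1315 stood above the others for the apolipoprotein gene Apoa1 (0.8497, with 312250 against 244211 to 253402), and mouse H828 below them for the macrophage gene Cd68 (0.837, with 149 against 193 to 203). All but 2 of the 7 were in Control mice, and these were F2110 and F2212.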

How the results depend on the processing

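The log2 fold changes of the 8 enzymes and Akr1c19 were recomputed under 15 alternatives, giving 134 values, since Hsd3b2 is not among the 8000 most abundant genes. Of these, 127 kept their sign and their side of the threshold. Cyp17a1 was called without Control mouse F2110 (log2 fold change 1.90, limma adjusted p = 0.00737), so that the count of enzymes called ran from 0 to 1 when mice were left out. Hsd3b5, at 0.01, turned to -0.018 with a pseudocount of 5, and with mice left out ran from -0.90 to 0.62, being -0.18 without H1126 or without F2212, -0.03 without H828, -0.02 without H1315 and -0.90 without F2110. Of all genes, 47 were called, but 19 of the 8000 most abundant, 30 without the trend and 16 (without H817) to 77 (without F2212) with mice left out. Among the 12 lists, 9 genes were called, and 4 to 11 with mice left out. Equal column totals moved the median of all genes by 0.0035 (log2). By the longest coding transcript, an alternative chosen after seeing the data, Cyp17a1 moved from place 4 to 5, Srd5a1 from 5 to 6 and Hsd3b3 from 6 to 4 in level on the Control diet. Of the 24 genes most like an enzyme, 7 were kept after subtracting diet means. Apart from the smaller gene set and fewer mice, the cause was not tested. The alternatives that leave a mouse out rest on 3 mice in 1 group. No paired analysis was possible because the mouse codes are not shared between the diets.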

Other observations

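After the diet means were subtracted, the gene most like Hsd11b1 over the 8 mice was Ttr, the transthyretin carrier made by hepatocytes (Pearson r = 0.98). For Srd5a1 it was Cmtm6 (0.98), with Nr0b2, the bile acid-induced receptor also known as Shp, next (0.97). For Akr1c6 it was Znrf1 (0.99), followed by the alcohol dehydrogenase Adh1 (0.99), and for Cyp17a1 it was Myc (0.97). Cyp7b1 and Hsd3b5 kept their nearest genes, Dnajb9 (0.98) and Hao1 (0.97). These values describe 8 points that share libraries, and each gene was picked as the most like of all genes measured.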
